A study of Rattus norvegicus with 24 samples.

Results

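Genes of blood coagulation and of the complement system were followed in the liver of male Wistar rats fed a diet with 5% or 20% protein. The list held 34 gene symbols, 16 of coagulation and 18 of complement. A member counted as measured when the array's annotation paired a probe set with its symbol alone, and the brightest such probe set stood for the gene. This gave 31 measured members of 17245 genes tested, all 16 coagulation symbols and 15 complement symbols. C2 and Cfb share 1 probe set that is paired with both symbols, and no probe set is paired with C5, so these 3 symbols were not analysed here.

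The 24 rats formed 4 groups of 6: 20% protein for 1 week, 5% protein for 1 week, 20% protein for 4 weeks and 5% protein for 4 weeks. All were male, and neither their age nor any other treatment is stated in the sources used here. The 20% diet served as the control at each time. These percentages and times are those of the sample titles; the description codes carry 4 and 18 in place of 5 and 20, and the series' design text names 4 weeks only.

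Coagulation is a chain of serine proteases that ends with thrombin cutting fibrinogen into fibrin, and most of its proteases, cofactors and inhibitors reach the plasma from hepatocytes. Complement is a related protease chain: the classical and lectin pathways recognise antibody or sugar surfaces, meet at C3, and lead to a terminal pore, the membrane attack complex. The liver makes most circulating complement proteins as well, and clotting tests are used clinically as a measure of hepatic protein synthesis.

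RNA of each rat was read on 1 Affymetrix whole-transcript array, and the values are probe set intensities after robust multi-array averaging (RMA) and are analysed here on the log2 scale. The deposited intensities ran from 3.27 to 15793 and array medians from 42.4 to 45.5. A probe's brightness cannot be set against another probe's, so levels are compared between animals for 1 gene at a time. Differences are 5% minus 20% protein from limma, with their standard error (SE). Called genes are those with an adjusted p (Benjamini-Hochberg, over all 17245 genes) below 0.05, and "fell" and "rose" are used only of called genes. Rats were put in order of animal number, and each unbroken stretch of the same feeding time is called a run here. This gave 4 runs, whose borders the labels do not give. The first run (4 weeks) held 5 rats on 5% and 2 on 20% protein, and the second (1 week) 3 and 3. The third (4 weeks) held 1 and 4, and the fourth (1 week) 3 and 3. What these runs stand for is not stated.

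After 4 weeks, all 31 measured members fell on 5% protein, 16 of 16 in coagulation and 15 of 15 in complement. Of all genes tested, 12.4% were called lower and 13.4% higher. Member probe sets are bright, and among the 1691 genes at least as bright on average as the dimmest member 28.8% were called lower. The median difference was -0.44 over the coagulation members and -0.67 over the complement members, against -0.01 over all genes. In 18 members, 9 of each system, the highest rat on 5% protein lay below the lowest rat on 20% protein, which held for 5.88% of all genes and 15.4% of the bright ones. Since these are bulk liver samples, fewer cells making a transcript and less of it per cell cannot be told apart.

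**Figure D1:**
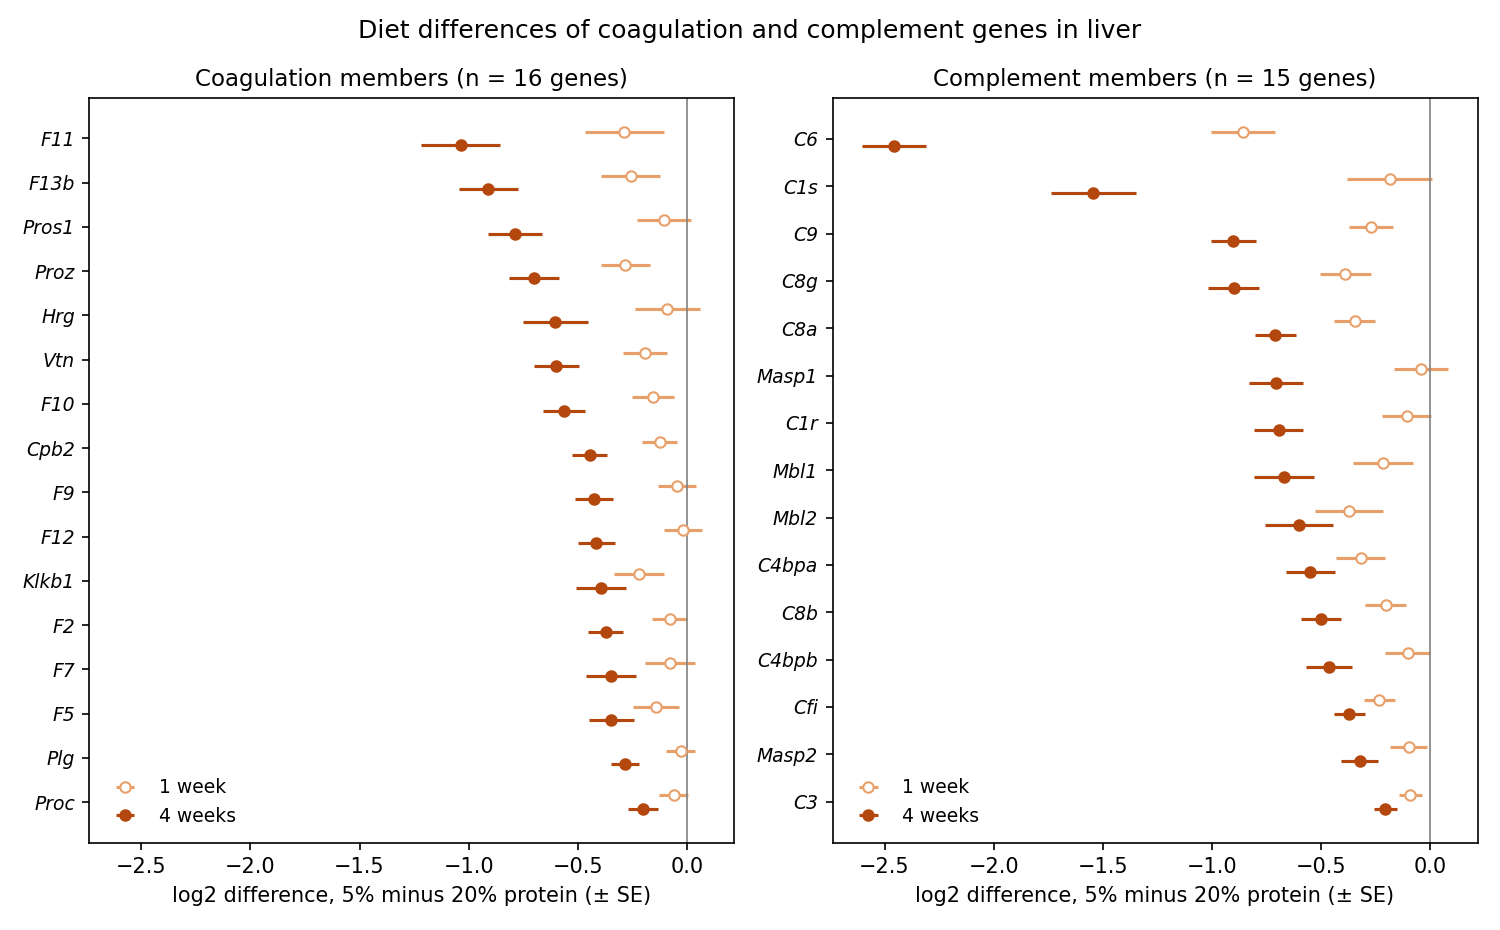
Difference in log2 intensity between 5% and 20% protein for each measured coagulation (left, 16 genes) and complement (right, 15 genes) member, with bars of 1 SE and n = 6 rats per group; open points are 1 week and filled points 4 weeks. Every filled point lies left of 0, from C6 at -2.46 to Proc at -0.20, and every open point also lies at or below 0, with C6 at -0.86.

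The largest fall of any member was in the terminal component C6. C6, which joins C5b to start the membrane attack complex, had log2 intensities from 10.95 to 11.69 (median 11.58) on 20% protein at 4 weeks and from 8.69 to 9.38 (median 8.95) on 5% protein. The groups were far apart: the highest low-protein rat was below every control rat. C6 fell by 2.46 on the log2 scale (SE 0.15, adjusted p = 2.45e-11), to 18.2% of the control level, and this was the 47th lowest difference of the 17245 genes. C9, which polymerises into the wall of the pore, ran from 12.31 to 12.93 (median 12.61) on 20% and from 11.42 to 12.15 (median 11.67) on 5% protein. Again no rats overlapped, and the difference was -0.90 (SE 0.10, adjusted p = 5.56e-07).

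C8 is built from an alpha, a beta and a gamma chain, and each chain has its own gene. For the gamma chain gene C8g the control range was 12.67 to 12.85 (median 12.75) and the low-protein range 11.12 to 12.19 (median 11.95), a difference of -0.90 (SE 0.12, adjusted p = 3.31e-06). The alpha chain gene C8a ran from 12.12 to 12.58 (median 12.33) on 20% and from 11.26 to 11.91 (median 11.65) on 5% protein, a difference of -0.71 (SE 0.09, adjusted p = 4.35e-06). Neither gene had overlapping groups. The beta chain gene C8b fell by 0.50 (SE 0.09, adjusted p = 2.36e-04), and its groups overlapped.

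C1r and C1s are the paired proteases of the first complement component. C1s ran from 10.93 to 11.69 (median 11.24) on 20% protein at 4 weeks and from 9.03 to 10.29 (median 9.76) on 5% protein, without overlap. Its level fell to 34.3% of the control (difference -1.54, SE 0.20, adjusted p = 2.33e-06), the 125th lowest difference of all genes. C1r, whose gene lies next to C1s in the RefSeq annotation with 0 genes between, ran from 12.32 to 12.67 (median 12.48) and from 11.42 to 12.09 (median 11.87) in the same groups. It fell by less, -0.69 (SE 0.11, adjusted p = 4.90e-05).

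**Figure D2:**
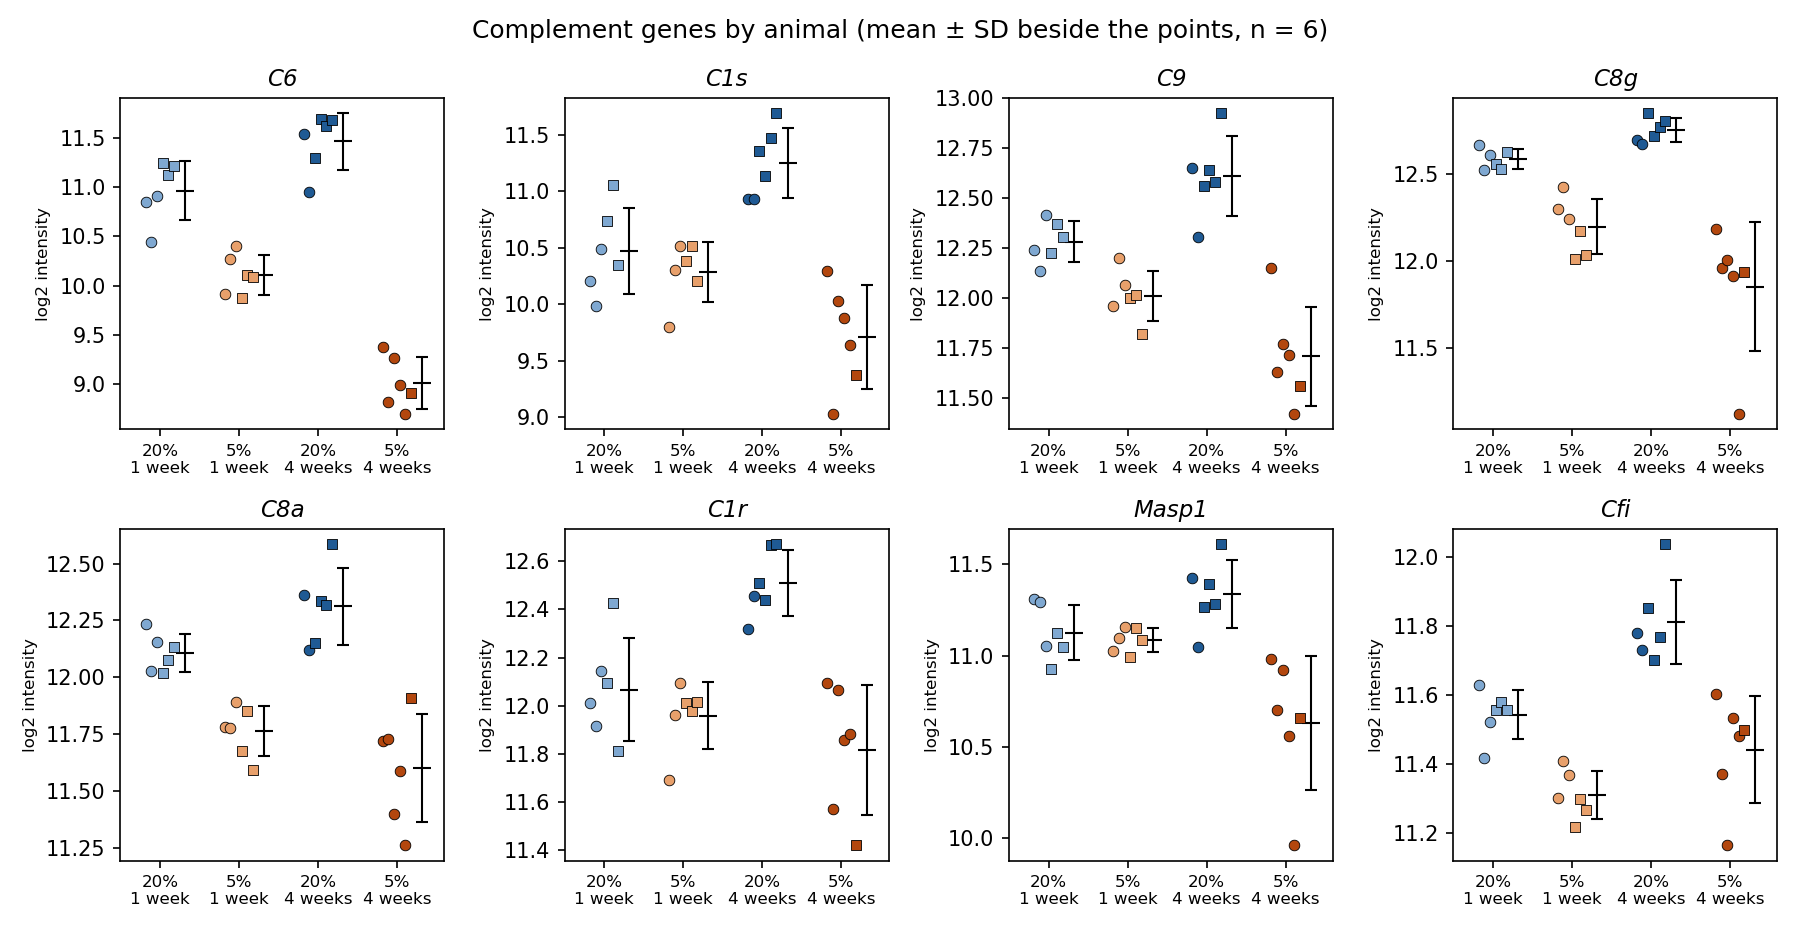
Log2 intensity of 8 complement genes in each rat, by diet and week, with the group mean ± SD (n = 6) beside the points; circles are the runs of lower animal numbers (the first and the second) and squares those of higher numbers (the third and the fourth). At 4 weeks no low-protein rat reached the lowest control in any of the 8 genes, and the gap was widest in C6 (9.38 against 10.95).

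The lectin pathway starts when mannose-binding lectins or related proteins bind sugars and switch on the proteases Masp1 and Masp2. Masp1 ran from 11.05 to 11.61 (median 11.34) on 20% and from 9.96 to 10.98 (median 10.68) on 5% protein at 4 weeks. The groups did not overlap and the difference was -0.71 (SE 0.12, adjusted p = 1.29e-04). Masp2 fell by 0.32 (SE 0.08). The lectin genes Mbl1 and Mbl2 fell by 0.67 (SE 0.14) and 0.60 (SE 0.15). Groups overlapped for Masp2 and Mbl1 but not for Mbl2.

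Of the complement regulators, Cfi encodes factor I, the protease that inactivates C3b and C4b. It ran from 11.70 to 12.04 (median 11.77) on 20% and from 11.16 to 11.60 (median 11.49) on 5% protein, a difference of -0.37 (SE 0.07, adjusted p = 3.50e-04) without overlap. The alpha and beta chain genes of C4b-binding protein, a cofactor of factor I, fell by 0.55 (C4bpa, SE 0.11) and 0.46 (C4bpb, SE 0.10). The central component C3 had the smallest fall in the complement group, -0.20 (SE 0.05, adjusted p = 0.00462), to 86.8% of the control level, with overlapping groups.

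Promoter sequence is shown for the 2 complement members called at both 1 and 4 weeks, C6 and C8a, in which matches to motifs of liver transcription factors are in capitals. The windows run from 250 bases before to 50 bases after the gene start in RefSeq's GRCr8 annotation and are written 5′ to 3′ on the gene's strand, C6 at chr2:55573383-55573682 on the plus strand and C8a at chr5:124866582-124866881 on the minus strand. Counting the first base of the gene as 0, the capitals mark a C/EBP motif on the opposite strand at -176 to -169 in C6. In C8a they mark a STAT motif at -230 to -222, a C/EBP motif at -136 to -129 and an HNF1 motif at -110 to -105.
C6: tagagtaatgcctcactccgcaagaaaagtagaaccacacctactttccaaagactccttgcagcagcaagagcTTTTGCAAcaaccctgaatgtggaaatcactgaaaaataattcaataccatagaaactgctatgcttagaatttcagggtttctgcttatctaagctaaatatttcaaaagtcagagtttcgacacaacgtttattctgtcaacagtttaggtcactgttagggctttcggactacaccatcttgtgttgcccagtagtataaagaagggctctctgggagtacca
C8a: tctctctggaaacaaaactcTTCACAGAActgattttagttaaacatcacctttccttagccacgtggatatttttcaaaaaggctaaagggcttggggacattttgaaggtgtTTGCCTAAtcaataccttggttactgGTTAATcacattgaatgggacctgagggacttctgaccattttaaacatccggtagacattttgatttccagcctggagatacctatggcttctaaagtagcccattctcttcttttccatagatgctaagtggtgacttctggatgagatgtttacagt

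Among the coagulation members, the largest fall was in F11, the gene of factor XI, a protease of the contact phase that activates factor IX. F11 ran from 10.58 to 11.13 (median 10.77) on 20% protein at 4 weeks and from 9.21 to 10.31 (median 9.71) on 5% protein. Every control rat was above every low-protein rat, and the level fell to 48.8% of the control (difference -1.04, SE 0.18, adjusted p = 1.29e-04). The contact-phase genes F12 and Klkb1, which encode factor XII and plasma prekallikrein, fell by 0.41 (SE 0.09) and 0.40 (SE 0.11). F11 and Klkb1 are neighbours with 0 genes between them.

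F13b encodes the carrier subunit of factor XIII, the enzyme that crosslinks fibrin. It ran from 10.95 to 11.45 (median 11.19) on 20% and from 9.84 to 10.44 (median 10.34) on 5% protein at 4 weeks, with no overlap. The difference was -0.91 (SE 0.13, adjusted p = 1.84e-05). F5, the cofactor of factor Xa in making thrombin, fell by 0.35 (SE 0.10), and its groups overlapped.

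The 3 anticoagulant members fell by unequal amounts. Pros1, the gene of protein S, the cofactor of activated protein C, ran from 10.74 to 11.25 (median 11.17) on 20% and from 9.75 to 10.61 (median 10.37) on 5% protein, a difference of -0.79 (SE 0.12, adjusted p = 3.72e-05). Proz, the gene of protein Z, a cofactor in the inhibition of factor Xa, ran from 11.10 to 11.82 (median 11.51) and from 10.47 to 11.06 (median 10.78), a difference of -0.70 (SE 0.11, adjusted p = 5.68e-05). In both genes the groups were apart. Proc, the gene of protein C itself, had the smallest fall of all members, -0.20 (SE 0.07, adjusted p = 0.0288), with overlapping groups. That call was lost when array medians were centred (the median of all genes then moved from -0.01 to 0.02) and without the 5% rats 32 or 59 or the 20% rats 63 or 73.

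The clotting proteases F2 (prothrombin), F7, F9 and F10 fell by 0.37 (SE 0.08), 0.35 (SE 0.11), 0.42 (SE 0.09) and 0.56 (SE 0.10). F10 ran from 12.33 to 12.61 (median 12.46) on 20% and from 11.38 to 12.21 (median 11.95) on 5% protein, and its groups did not overlap. Those of F9 were also apart, while those of F2 and F7 overlapped. The call of F7 was lost without the 5% rats 31, 32 or 59 or the 20% rats 63 or 73. F7, F10 and Proz lie side by side in the annotation, and their differences were -0.35, -0.56 and -0.70.

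Of the genes of fibrinolysis and its modulators, Plg (plasminogen) fell by 0.28 (SE 0.06) and Vtn, the gene of vitronectin, which also binds the terminal complement complex, by 0.60 (SE 0.10). Hrg, the gene of histidine-rich glycoprotein, ran from 12.56 to 12.83 (median 12.64) on 20% and from 11.50 to 12.75 (median 12.10) on 5% protein. It fell by 0.60 (SE 0.15, adjusted p = 0.00345), and 1 low-protein rat lay within the control range. Cpb2, which encodes a carboxypeptidase that slows fibrinolysis, fell by 0.45 (SE 0.08), but it alone of the members has 2 probe sets and they disagreed. The second, dimmer probe set, with group means of 7.26 and 7.44, was 0.18 higher on 5% protein (SE 0.23, adjusted p = 0.668), and the mean over both gave -0.14 (adjusted p = 0.527).

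The 7 members whose proteins need vitamin K dependent carboxylation (F2, F7, F9, F10, Proc, Pros1 and Proz) had a median difference of -0.42 and the other 9 coagulation members -0.45. Seen by class, the medians at 4 weeks were -0.40 for the clotting proteases, -0.41 for the contact phase, -0.70 for the anticoagulants, -0.52 for fibrinolysis, -0.63 for cofactor and crosslinking (F5 and F13b), -1.12 for the classical pathway (C1r and C1s), -0.63 for the lectin pathway, -0.90 for the terminal components and -0.46 for the regulators, with C3 alone in its class at -0.20. No class holds more than 5 measured genes.

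**Figure D3:**
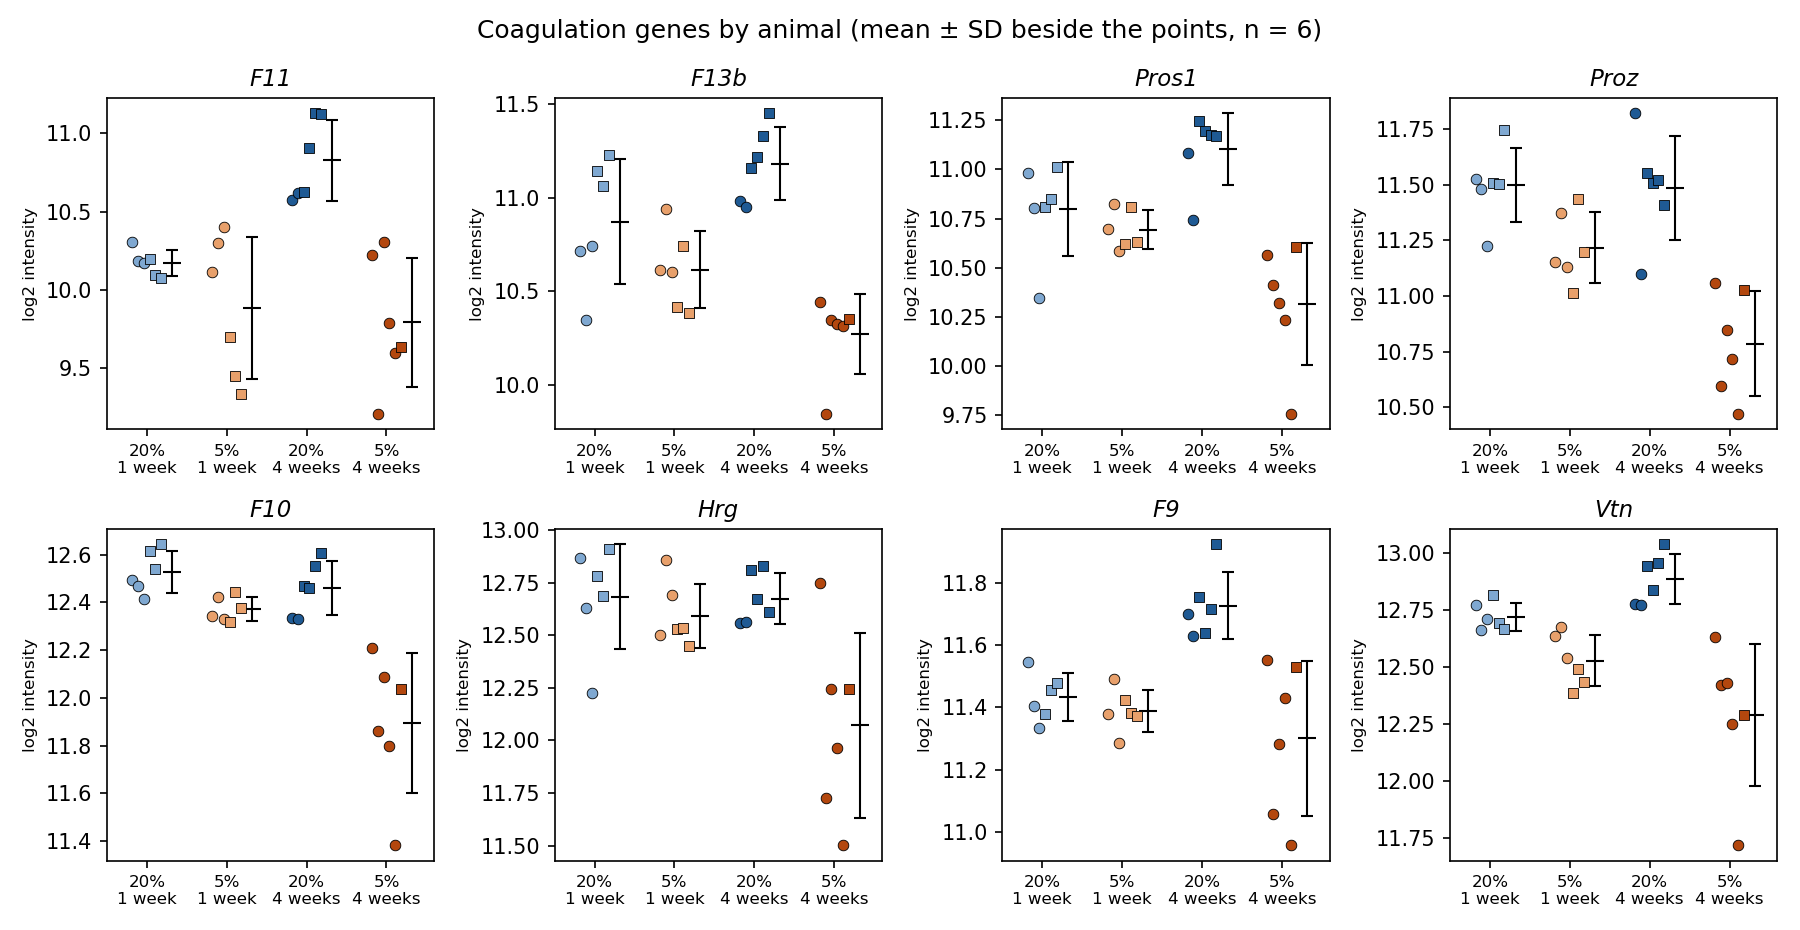
Log2 intensity of 8 coagulation genes in each rat, by diet and week, with the group mean ± SD (n = 6) beside the points; circles are the runs of lower animal numbers (the first and the second) and squares those of higher numbers (the third and the fourth). At 4 weeks the diets were apart in 7 genes and overlapped in Hrg. The low-protein rats of F11 at 1 week split by run, from 10.12 to 10.40 in the second and from 9.34 to 9.70 in the fourth.

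The promoter windows of F11 and F13b, the coagulation members with the largest falls, are given for comparison with those of C6 and C8a. F11 is at chr16:53720252-53720551 and F13b at chr13:53681389-53681688, both on the plus strand of GRCr8. F11 held no match to any motif searched, and F13b held 1, an HNF1 motif on the opposite strand at -59 to -54, in capitals.
F11: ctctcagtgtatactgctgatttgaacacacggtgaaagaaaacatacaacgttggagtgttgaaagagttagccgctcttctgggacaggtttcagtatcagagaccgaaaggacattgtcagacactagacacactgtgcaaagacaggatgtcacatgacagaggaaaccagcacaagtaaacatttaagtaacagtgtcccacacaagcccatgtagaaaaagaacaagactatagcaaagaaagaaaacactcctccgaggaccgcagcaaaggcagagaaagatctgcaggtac
F13b: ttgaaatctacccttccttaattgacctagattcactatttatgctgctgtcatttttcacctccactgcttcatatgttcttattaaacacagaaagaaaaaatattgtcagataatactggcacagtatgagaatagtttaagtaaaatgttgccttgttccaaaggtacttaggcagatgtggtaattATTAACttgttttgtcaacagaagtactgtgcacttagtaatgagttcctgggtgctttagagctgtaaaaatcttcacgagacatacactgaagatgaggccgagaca

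RefSeq's promoter table held 25 of the 31 members, 14 of coagulation and 11 of complement, and lacked Cpb2, Hrg, Masp2, C1s, C8g and C9. Both strands were searched. The C/EBP motif TTGCNNAA was in 36.0% of the member windows (9 of 25, of which 6 were complement genes) and in 10.6% of all 33469 windows of the same length. The HNF1 motif GTTAAT was in 28.0% (7 of 25) against 7.45%. The STAT motif TTCNNNGAA was in 20.0% (5 of 25) against 8.87%, and an HNF4 motif, CAAAGTCCA or CAAAGTTCA, in 1 member (Proz) against 0.711%. No member window held the amino acid response motifs TTGCATCA or TGATGNAA, which 3.98% of all windows held. The reverse complement of TTGCATCA also matches TGATGNAA. The 33469 windows were not limited to the genes tested or to those bright in liver. Whether the members' shares differ from those of other liver genes was not tested. A match is a string of letters, and no binding was measured.

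After 1 week the differences were smaller. All 31 members were below 0, as were 9023 of all 17245 genes and 1083 of the 1691 bright ones. Of the members 2 fell, both terminal complement genes, against 2.44% of all genes called lower and 1.86% called higher. Among genes at least as bright as the dimmest member 5.32% were called lower, close to the members' 2 of 31 (6.45%). The median difference was -0.12 over the coagulation and -0.22 over the complement members, against -0.01 over all genes and -0.06 over the bright ones. C6 ran from 10.44 to 11.25 (median 11.02) on 20% and from 9.87 to 10.40 (median 10.09) on 5% protein, without overlap. It fell by 0.86 (SE 0.15, adjusted p = 0.00123), to 55.2% of the control level. C8a ran from 12.02 to 12.23 (median 12.10) and from 11.59 to 11.89 (median 11.78) and fell by 0.35 (SE 0.09, adjusted p = 0.0351). With 1 rat left out, the number called was 1 without 5% animals 49, 74 or 76 or 20% animals 51 or 79, and 2 otherwise. Over 28 alternatives, which also held other scalings, fits and runs, C8a lost its call in 12 and C6 in 1.

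In 6 members the diets did not overlap at 1 week, against 1.36% of all genes and 3.9% of the bright ones, and all 6 belong to complement: C3, C6, C8a, C8b, C8g and Cfi. C8g differed by -0.39 (SE 0.12, adjusted p = 0.0589), from a control range of 12.52 to 12.67 (median 12.59) to 12.02 to 12.43 (median 12.21). Cfi differed by -0.23 (SE 0.07, adjusted p = 0.0624), from 11.42 to 11.63 (median 11.56) to 11.22 to 11.41 (median 11.30). Both missed the threshold as deposited and passed it after quantile normalization or with array weights, which made 4 called members. No coagulation member was called by limma at 1 week, and 1, Proz, had an unadjusted p below 0.05. The largest coagulation differences were in F11, -0.29 (SE 0.18), Proz, -0.28 (SE 0.11), F13b, -0.26 (SE 0.13), and Klkb1, -0.22 (SE 0.11). The smallest was in F12, -0.02 (SE 0.09).

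In the other named members the diets overlapped at 1 week. C9 ran from 12.14 to 12.42 (median 12.27) on 20% and from 11.82 to 12.20 (median 12.01) on 5% protein, and C1s from 9.98 to 11.05 (median 10.42) and from 9.80 to 10.52 (median 10.34). C1r ran from 11.81 to 12.43 (mean 12.07 ± 0.21, SD) and from 11.69 to 12.09 (mean 11.96 ± 0.14), and Masp1 from 10.92 to 11.31 (median 11.09) and from 10.99 to 11.16 (median 11.09). The Masp1 medians were thus equal to 2 decimals at 1 week. In coagulation, F11 ran from 10.08 to 10.31 (median 10.18) and from 9.34 to 10.40 (median 9.91), and F13b from 10.34 to 11.23 (median 10.90) and from 10.38 to 10.94 (median 10.61). Pros1 ran from 10.35 to 11.01 (median 10.83) and from 10.58 to 10.82 (median 10.66), and Proz from 11.23 to 11.75 (median 11.51) and from 11.01 to 11.43 (median 11.17). The low-protein rats had the lower median in each of these 4 genes. F10 ran from 12.41 to 12.64 (median 12.52) and from 12.32 to 12.44 (median 12.36), and Hrg from 12.23 to 12.91 (median 12.74) and from 12.45 to 12.86 (median 12.53).

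The diet difference was more negative at 4 weeks than at 1 week in 31 of 31 members, and this change passed the test in 7: C6 (-1.60, SE 0.21, adjusted p = 1.05e-04), C1s (-1.36, SE 0.28), Pros1 (-0.68, SE 0.18), Masp1 (-0.67, SE 0.18), F13b (-0.65, SE 0.19), C9 (-0.63, SE 0.14) and C1r (-0.59, SE 0.16). Of all 17245 genes, 8535 were below 0 in this comparison, and 2.2% were called lower and 3.54% higher. Of the 1691 bright genes, 833 were below 0, and 6.74% were called lower and 5.62% higher. F11 had a change of -0.75 that missed the threshold (SE 0.26, adjusted p = 0.0819). The number of members called was 15 without the 5% rat 22 and 4 without the 20% rat 73 at 4 weeks. With the run as a covariate it was 3 (C6, C1s and C9). Over 37 alternatives F13b lost its call in 20, C1r in 8, Masp1 in 3 and Pros1 in 2. C6, C1s and C9 kept theirs in all 37.

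On 20% protein, 3 complement members rose from 1 to 4 weeks and none fell: C1s (0.78, SE 0.20, adjusted p = 0.0295), C1r (0.44, SE 0.11, adjusted p = 0.0309) and Cfi (0.27, SE 0.07, adjusted p = 0.0415). Of all genes, 1.02% were called higher and 1.5% lower, and of the bright ones 1.77% higher and 2.66% lower. The 3 calls were close to the threshold, and the number was 0 without any 1 of the 20% rats 52 and 79 (1 week) or 72 and 73 (4 weeks), 1 without 51, 77, 63 or 67, and 6 without 30. On 5% protein, 6 members fell from 1 to 4 weeks and none rose: C6 (-1.10, SE 0.15), Hrg (-0.52, SE 0.15), F10 (-0.48, SE 0.10), Masp1 (-0.46, SE 0.12), Proz (-0.43, SE 0.11) and F7 (-0.39, SE 0.11). Of all genes 4.13% were called lower and 4.15% higher, and of the bright ones 9.58% lower and 5.09% higher. Without the 5% rat 22, 31 or 32 at 4 weeks the number was 12, 3 or 2. The age of the rats is not stated, so age and feeding time cannot be told apart in either comparison.

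To compare the 2 systems within animals, each member was expressed relative to its mean over the control rats at 1 week and averaged. The coagulation mean was -0.14 ± 0.11 (SD, n = 6) on 5% protein at 1 week, 0.13 ± 0.11 on 20% at 4 weeks and -0.39 ± 0.20 on 5% at 4 weeks. The complement mean was -0.26 ± 0.07, 0.23 ± 0.13 and -0.54 ± 0.20 in the same groups. At 4 weeks the ranges of the diets were apart for coagulation (-0.70 to -0.11 against -0.02 to 0.28) and for complement (-0.86 to -0.23 against 0.02 to 0.42). At 1 week they were apart for complement (-0.33 to -0.19 against -0.09 to 0.05) and overlapped for coagulation (-0.28 to 0.03 against -0.09 to 0.05).

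The complement mean minus the coagulation mean was negative in all 12 low-protein rats, from -0.22 to -0.02 at 1 week and from -0.22 to -0.09 at 4 weeks, and positive in all 6 control rats at 4 weeks, from 0.04 to 0.18. The sign in all 12 rested on C6: without it the difference was above 0 in low-protein rats 75 and 76 at 1 week and 23 at 4 weeks, and at 1 week the diets overlapped (-0.18 to 0.03 on 5% against -0.03 to 0.02 on 20% protein). The gap at 4 weeks was also smaller without C6. The means without it at 4 weeks were -0.05 on 5% and 0.08 on 20% protein, against -0.15 and 0.10 with it. The 5% range without C6, -0.12 to 0.02, ended just below the control range of 0.02 to 0.16. No test was made of these averages, since the members were chosen with earlier results known.

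**Figure D4:**
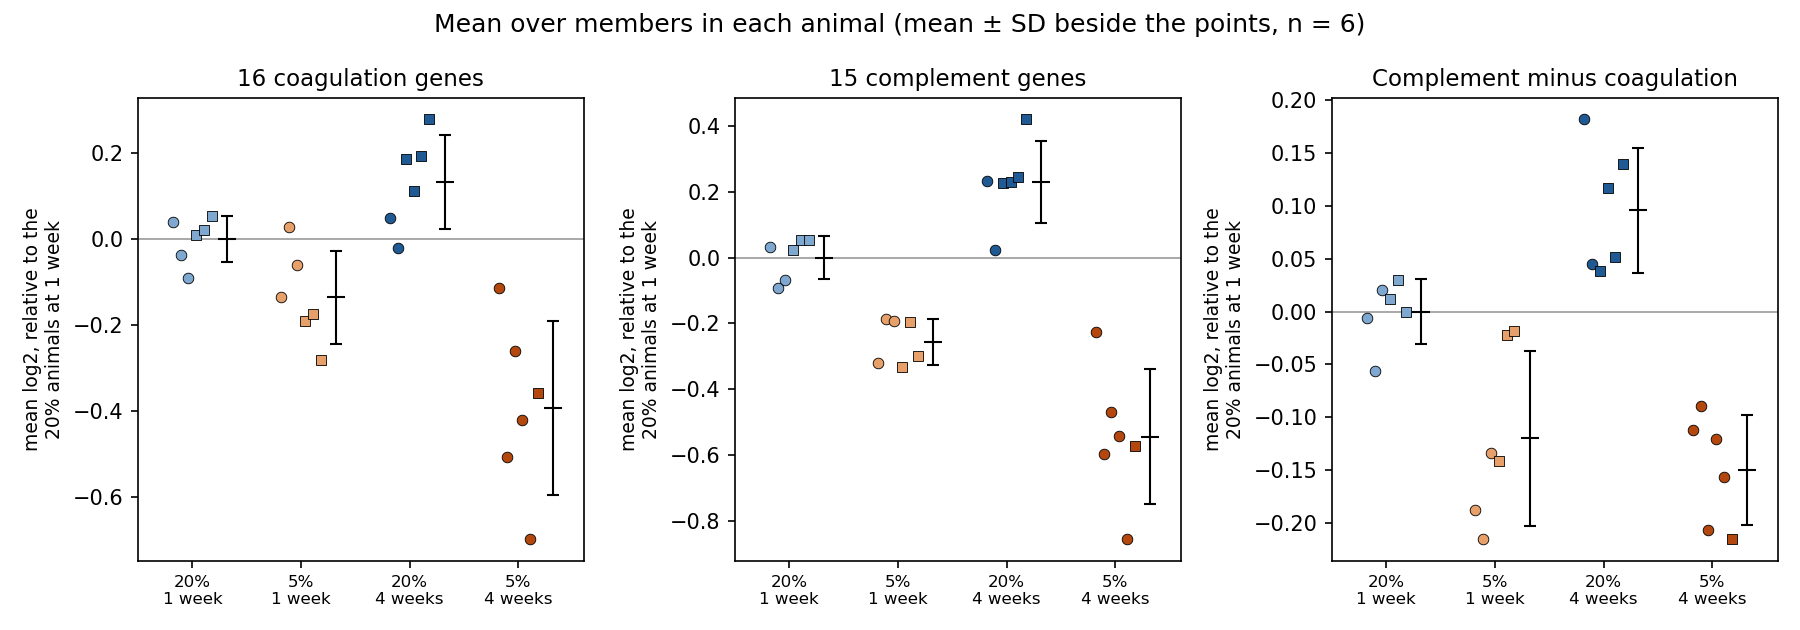
Mean log2 intensity over the 16 coagulation genes, over the 15 complement genes, and their difference, in each rat relative to the 20% rats at 1 week, with the group mean ± SD (n = 6) beside the points; circles are the runs of lower animal numbers (the first and the second) and squares those of higher numbers (the third and the fourth). In the difference panel the low-protein rats lie below 0, down to -0.22, and the control rats at 4 weeks above 0, up to 0.18.

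The low-protein rats at 4 weeks spread widely, and they did so in the same order for many members. Rat 32 was the lowest of its group in 23 of 31 members and rat 22 the highest in 26, while over all genes these rats were lowest in 16.1% and highest in 12.4%. In the control group at 4 weeks, rat 30 was lowest in 17 and rat 73 highest in 21 of 31 members. Over all genes the shares were 20.2% for rat 30 and 12.6% for rat 73. Leaving out rat 32 or rat 22 kept at least 29 of the 31 members called at 4 weeks.

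Diet and run were unequally mixed at 4 weeks. Within the first run alone all 31 members were below 0 on 5% protein (median -0.47) and 20 fell. In that run 7.54% of all genes and 16.9% of the bright ones were called lower. Within the third run all 31 members were below 0 (median -0.54). Of all 17245 genes, 9149 were below 0 in the first and 9091 in the third run. With both runs together the member median was -0.56. Among the 20% rats alone, the third run was below the first in 3 of 31 members, against 9257 of all 17245 genes. The median of that difference was 0.15 over the members and -0.02 over all genes. The third run holds 1 low-protein rat, which is assumed to vary as the other groups do. C6 fell by 2.22 (SE 0.19) in the first and by 2.66 (SE 0.25) in the third run. At 1 week the runs differed more. The coagulation median was -0.03 in the second and -0.22 in the fourth run, and the complement median -0.16 and -0.30. In the second run 22 of 31 members were below 0 and none was called (3 had an unadjusted p below 0.05). There 4.71% of all genes and 7.57% of the bright ones were called lower, and C6 differed by -0.54 (adjusted p = 0.0776). In the fourth run 29 of 31 were below 0, and C6 (-1.18, SE 0.18) and F13b (-0.63, SE 0.15) fell. These 2 members (6.45%) compare with 4.45% of all genes and 9.52% of the bright ones called lower. For F13b the diet difference differed between the runs themselves (-0.75, SE 0.21, adjusted p = 0.0298). The control rats differed there too: F13b on 20% protein was 0.54 higher in the fourth than in the second run (SE 0.15, limma adjusted p = 0.0187). The sample titles also hold codes of a letter and a number, read here as well row and column. The labels do not say what these codes stand for. At 1 week the 5% and 20% rats have different letters, so that letter and diet cannot be told apart there.

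Other genes of the same systems were set beside the members. Of 33 measured of 40 other coagulation genes, 12 fell and 2 rose at 4 weeks, with a median of -0.26. The largest falls were in Serping1, the inhibitor of C1r, C1s and kallikrein (-0.82, SE 0.11), and Gas6 (-0.74, SE 0.25), and the rises in Tfpi, the tissue factor pathway inhibitor (0.73, SE 0.16), and Plaur (0.34, SE 0.13). The fibrinogen chain genes Fga, Fgb and Fgg fell by 0.40, 0.39 and 0.40, and antithrombin (Serpinc1) by 0.17. None of the 33 was called by limma at 1 week, where 6 had an unadjusted p below 0.05. Of 29 measured of 41 other complement genes, 18 fell and 1, C1qbp (1.10, SE 0.11), rose at 4 weeks, with a median of -0.43. C7, which follows C6 in the pore, fell by 1.24 (SE 0.43) and C1rl by 0.98 (SE 0.14). At 1 week 4 fell: Fcnb (-0.69), Colec10 (-0.37), Crp (-0.29) and Clu (-0.29).

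A list built around the vitamin K cycle and the processing of the proteins it modifies held 13 genes, of which 12 were measured. Dhrs4 is on this list, but it encodes a carbonyl reductase and is not an established gene of that cycle. At 4 weeks 5 fell, Pcsk5 (-1.36, SE 0.24), Cyp4f4 (-0.81, SE 0.10), Cyp4f1 (-0.49), Cyp4f6 (-0.32) and Furin (-0.30), and Dhrs4 rose (0.32, SE 0.08). The carboxylase Ggcx differed by 0.02 (SE 0.13) and the epoxide reductase Vkorc1 by -0.13 (SE 0.10), and neither was called. At 1 week Cyp4f1 alone fell (-0.37). Of 30 measured of 34 liver transcription factors and acute phase signalling genes, 10 fell and none rose at 4 weeks (1 was higher at an unadjusted p below 0.05). Hlf (-1.57, SE 0.27) and Tef (-1.30, SE 0.40) fell most, and Cebpa, whose family binds the C/EBP motif, fell by 0.65 (SE 0.10). The interleukin 6 receptor Il6r fell by 1.25 (SE 0.21). Hnf4a differed by -0.19 (SE 0.13, adjusted p = 0.336) and was not called. At 1 week Onecut1 fell (-1.71).

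Of 30 measured of 33 other plasma proteins made by hepatocytes, 20 fell and 1 rose at 4 weeks, with a median of -0.34. Igfals (-2.98, SE 0.31) and Orm1 (-2.96, SE 0.35) fell most, and the thyroxine carrier gene Serpina7 rose by 4.19 (SE 0.32). Albumin (Alb) differed by -0.13 (SE 0.06, adjusted p = 0.0869) and was not called. At 1 week Igfals (-2.35) and Afm (-0.87) fell and Serpina7 rose (2.17).

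Markers of the cell types of liver were read in the same arrays. Of 10 hepatocyte markers 8 were measured, and Cps1 and Ttr fell at 4 weeks. Their summed intensity was 62820 to 74440 on 20% and 57890 to 68620 on 5% protein. Of 12 Kupffer cell and macrophage markers 10 were measured and 9 fell at 4 weeks (C1qa, C1qb, C1qc and Vsig4 are also in the list of other complement genes). Their sum was 5859 to 9718 on 20% and 3992 to 4919 on 5% protein, without overlap, while at 1 week none was called (2 had an unadjusted p below 0.05) and the sums overlapped (6578 to 9370 against 5486 to 8318). The endothelial sum was also lower without overlap (3448 to 4045 against 2845 to 3345, 2 of 7 measured markers called lower). Of the stellate markers 3 of 9 fell, of T and B cell markers 2 of 8, of platelet markers 2 of 6, of erythroid markers 2 of 5 (3 of 5 at 1 week) and of neutrophil markers 0 of 7 at 4 weeks, while 2 of 6 biliary markers rose. The part of these cells in the members' differences was not tested.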

How the data were processed

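One array per rat was analysed, 24 in all, with 6 rats per group. The deposited values are probe set intensity on the unlogged scale after RMA, per the labels and the submitters' processing notes; no version, genome build or filter is given in the sources used here. The log2 of the intensity was taken with no offset and no filter. The array annotation gives 1 symbol to 18644 of 29214 probe sets, which were used. Left out were 962 with several symbols and 9608 that it does not name. The probe set with the highest mean over all arrays stood for a gene (879 genes have more than 1), which left 17245 genes. All 31 measured members matched the RefSeq table by Entrez identifier.

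limma 3.58.1 fitted the 4 group means together, using lmFit and then eBayes without trend or robust options (20 residual degrees of freedom, prior 3.95), in R 4.3.3 with data.table (1.17.8), two-sided, with Benjamini-Hochberg adjustment over all genes at 0.05. The fit was tested on simulated data. RMA values carry no background measure, and the number of arrays limits the precision. Nothing in the labels says more than that the arrays are of separate animals.

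The members and lists were chosen with earlier results of these data known. Every measured member is named with its difference at 4 weeks. The members given by group are, in each system, the 4 largest falls at 4 weeks and 2 at 1 week among called genes, and over both systems the 4 largest called differences for diet by time and the 3 largest for each time comparison. Genes of other lists are the 2 largest called in each direction plus any whose count is 5 or fewer; others there were named after their values were seen, as were the promoters shown. The alternatives were other scalings, probe set rules, filters, fits, covariates, runs and single rats left out. Leaving out the 20% rats of 1 run at 1 week, and the background of bright genes, were added after seeing the data.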

Additional observations from a re-analysis of the deposited data

Results flagged for a closer look

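In 8 of 124 groups of 6 rats checked, 1 rat's log2 intensity stood apart from the other 5 by Dixon's 95% criterion, which chance alone exceeds in about 1 group in 20. All 8 were the lowest of their group. On 20% protein at 1 week, rat 53 was low in Pros1 (10.35) and Masp2 (11.14). On 20% protein at 4 weeks, rat 30 was low in the same genes, Pros1 (10.74) and Masp2 (11.28), and rat 67 in F7 (9.48). On 5% protein, rat 49 was low in C1r at 1 week (11.69), and rats 23 and 32 were low at 4 weeks in F13b (9.84) and C8g (11.12).

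The diet difference itself changed between 1 and 4 weeks, by limma's test, in 7 members: C6 (-1.60), C1s (-1.36), Pros1 (-0.68), Masp1 (-0.67), F13b (-0.65), C9 (-0.63) and C1r (-0.59). F13b lost this call in 20 and C1r in 8 of 37 alternatives. The diet difference of F13b at 1 week was also lower in the fourth than in the second run of animal numbers (-0.75). Its level in the 20% rats was 0.54 higher in the fourth run.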

How the results depend on the processing

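At 4 weeks the medians stayed between -0.49 and -0.37 (coagulation) and between -0.73 and -0.56 (complement) under every alternative run. At 1 week the coagulation median, -0.12, was -0.03 in the second run and -0.22 in the fourth, and the complement median, -0.22, was -0.16 and -0.30; the last moved by more than the larger SD of the complement mean between rats of the diets compared. The number of members called lower at 4 weeks, 31, was 29 to 31 with 1 rat left out, 20 in the first run alone and 14 in the third, where fewer rats were compared. At 1 week, 2 members were called; the number was 4 after quantile normalization or with array weights, 1 with the well row as a block, 0 in the second run alone, 1 to 2 with 1 rat left out and 1 without the 20% rats of the fourth run. For diet by time, 7 became 3 with the run as a covariate, 4 without the 20% rats of the second run and 4 to 15 with 1 rat left out. The 3 rises on 20% protein became 6 with array weights, 0 with the well row as a block or without the 20% rats of the second run, and 0 to 6 with 1 rat left out. The 6 falls on 5% protein became 11 after quantile normalization or with the well row as a block, 3 with only the groups compared and 2 to 12 with 1 rat left out. Causes of these changes were not tested.

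Of the members given by group, some had differences at 1 week, none of them called, that turned above 0: Masp1 after quantile normalization (0.0026), in the fourth run (0.045) and without the 20% rats of the second run (0.053); F11 (0.054), F13b (0.12) and Hrg (0.11) in the second run; and F13b (0.016), C1s (0.059) and Hrg (0.021) without the 20% rats of the fourth run. Over all 31 members, 22 were below 0 in the second run and 29 in the fourth. At 4 weeks the calls lost most often were Proc (9 of 26 alternatives) and F7 (7), and C6, C1s, C1r, C8g, C9, F11, F12, F13b, Vtn and C4bpa kept theirs in all 26. No paired analysis was possible because each animal number occurs in 1 group.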
